A study of Mus musculus with 36 samples.

Results

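The genes of the tricarboxylic acid (TCA) cycle and its entry points were followed in single cells of the mouse left ventricle after ischemic injury. The set held 30 genes of the 20719 nuclear genes listed in the UMI tables, chosen by symbol, with earlier results of these data known. By role, 4 encode the pyruvate dehydrogenase complex (Pdha1, Pdhb, Dlat, Pdhx), 3 its inhibitory kinases (Pdk1, Pdk2, Pdk4) and 5 citrate synthase and the mitochondrial isocitrate dehydrogenases (Cs, Idh2, Idh3a, Idh3b, Idh3g). A further 3 encode 2-oxoglutarate dehydrogenase with the shared lipoamide dehydrogenase (Ogdh, Dlst, Dld), 3 the succinyl-CoA ligases (Sucla2, Suclg1, Suclg2) and 4 succinate dehydrogenase (Sdha, Sdhb, Sdhc, Sdhd). The others were fumarase and mitochondrial malate dehydrogenase (Fh1, Mdh2), 3 enzymes of the malate-aspartate shuttle (Mdh1, Got1, Got2) and 3 subunits of the branched-chain keto acid dehydrogenase (Bckdha, Bckdhb, Dbt).

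Pyruvate dehydrogenase turns pyruvate into acetyl-CoA in the mitochondrial matrix, and its kinases switch the complex off by phosphorylation. The cycle then oxidises acetyl-CoA and passes electrons to the respiratory chain, with succinate dehydrogenase belonging to both. The adult cardiomyocyte is densely packed with mitochondria and runs mostly on fatty acids, and Pdk4 is known as the kinase that limits glucose oxidation when fat is the fuel.

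SORT-seq, in which 1 sorted cell per well receives barcoded primers and each transcript a random tag (the unique molecular identifier, UMI), gave counts for 13824 wells of 36 plates. Male C57BL/6 mice of 8 weeks gave the cells, sorted from the infarcted region of the left ventricle or its equivalent after sham surgery. The sham plates were 4 of day 1 and 8 of day 14. Ischemia-reperfusion (IR, a ligation of the left anterior descending artery for 1 h) was followed for 1 day on 9 plates, for 3 days on 7 and for 14 days on 3, and myocardial infarction (MI, permanent ligation) for 3 days on 5 plates. Plates served as replicates, but some share a mouse and the mouse of each plate is not stated, which can make p-values too small. A sham of day 3 was not analysed here, and day 3 was therefore set against both sham groups, weighted equally and not matched by day. The MI plates also carry a protocol label of their own, so that MI and that batch cannot be told apart.

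Wells with at least 1000 UMIs from nuclear genes numbered 3146 and were clustered without the genes described here and the others of their pathway. By their markers, 1148 resembled cardiomyocytes, 407 endothelial cells, 493 macrophages, 301 fibroblasts, 156 neutrophils and 21 mural cells, and 620 were left unnamed. The cardiomyocyte wells were 233 and 234 in sham of day 1 and day 14, 35, 281 and 345 after IR of 1, 3 and 14 days and 20 after MI. A cluster led by Sprr1a, Nmrk2, Nppa and Clu held 24 of the 35 IR day 1 wells, 175 of the 281 IR day 3 wells and 19 of the 20 MI wells, but 21 of the 345 IR day 14 wells, 6 of day 1 sham and 3 of day 14 sham, so the groups draw on different cardiomyocyte clusters. Cardiomyocyte markers took 6.31 to 7.71% of UMIs in day 1 sham, 6.39 to 7.50% in MI and 3.34 to 4.69% in IR day 1. Their median share per well was 7.09% in day 1 sham, 9.17% in day 14 sham, 5.63% in MI and 4.42% in IR day 1. The part of these markers in the results below was not tested. Mitochondrially encoded RNA took 78.3 to 84.9% of all UMIs in sham cardiomyocytes and 2.33 to 10.1% in MI. Replicates 2 and 7 of day 14 sham held the same wells and were averaged as 1 plate (written 2+7). Levels are nuclear UMIs of a plate scaled to a sum of 1e6 (CPM), over plates with at least 5 wells of the class. UMI counts record each transcript once at its 3′ end, so they were not divided by length.

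In sham cardiomyocytes the most abundant members were Mdh1 of the malate-aspartate shuttle (median 1437 CPM over 9 plates), Ogdh, the E1 subunit of 2-oxoglutarate dehydrogenase (1292 CPM), Cs, which makes citrate (931 CPM), the NADP-dependent isocitrate dehydrogenase Idh2 (884 CPM) and Mdh2 (764 CPM). These 5 made up 39.6% of the summed level. Idh3b (747 CPM) and Got1 (715 CPM) came next, and Sdhb, the iron-sulfur subunit of succinate dehydrogenase, stood at 616 CPM. The middle of the order ran from Got2 (570 CPM) and Sdha (551 CPM) to Suclg1 (387 CPM), Sucla2 (380 CPM) and Pdk4 (360 CPM). The lowest were Pdhx (91.1 CPM), Pdk1 (71.2 CPM), Suclg2 (53.4 CPM) and the branched-chain subunits Dbt (43.8 CPM) and Bckdhb (31.7 CPM). Neighbours in this order overlapped between plates: Ogdh ranged from 1183 to 1742 CPM, Cs from 390 to 1973 CPM and Idh2 from 456 to 1541 CPM.

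Pooled over all groups, 29 of the 30 genes had their highest level in cardiomyocyte wells and Dbt in mural wells. The ratio of cardiomyocyte wells to all other wells had a median of 4.42 over the genes and passed 2 for 29 of them. It passed 10 for the kinases Pdk2 (19.8) and Pdk4 (10.9) and was 1.69 for Dbt. These ratios describe the classes and were not tested, since the classes were built from the same wells.

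**Figure D1:**
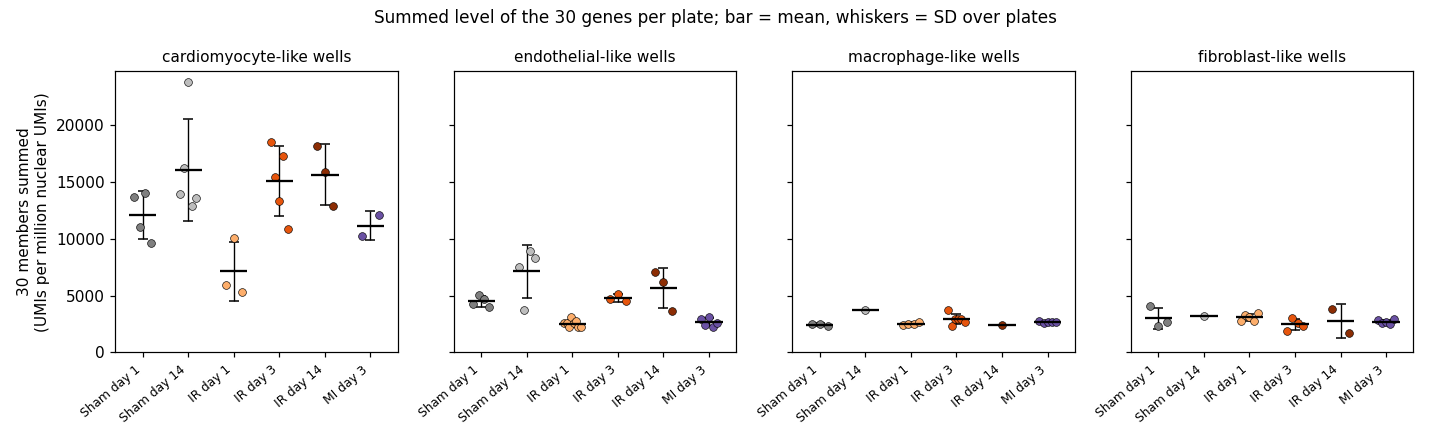
Summed level of the 30 genes in CPM (vertical axis) for each plate with at least 5 wells of the class, by group, in cardiomyocyte, endothelial, macrophage and fibroblast wells; points are plates, bars the group means and whiskers the SD. Cardiomyocyte wells of IR day 1 lie lowest among the cardiomyocyte groups, at 5356 to 10101 CPM.

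Over the 10 comparisons made, 23 genes passed the test (adjusted p under 0.05) at least once, and Pdhx, Pdk1, Cs, Suclg2, Sdhc, Sdhd and Bckdhb did not. The share of all genes that passed at least once was not counted, so the 23 are not read as a trait of the set. Comparisons are not independent, as both of MI cardiomyocytes use the same MI plates. No endothelial call was seen in wells with few cardiomyocyte markers (below). Within these limits, Idh2 and Ogdh were called lower in 5 comparisons each, more than any other member, and Pdk4 was called lower in 3 of the 6 cardiomyocyte comparisons. For this reason the 250 bases before a transcription start of each are shown, from a RefSeq table on GRCm38.p6, 5′ to 3′ on the gene's strand. The windows are chr7:80115351-80115600 on the minus strand for the Idh2 start in that table, which lies inside the span annotated for the gene (chr7:80094845-80118608), chr11:6291347-6291596 on the plus strand for the first of several Ogdh starts and chr6:5496279-5496528 on the minus strand for Pdk4. Capitals mark CCAAT boxes on either strand (written ATTGG when on the opposite one).
Idh2: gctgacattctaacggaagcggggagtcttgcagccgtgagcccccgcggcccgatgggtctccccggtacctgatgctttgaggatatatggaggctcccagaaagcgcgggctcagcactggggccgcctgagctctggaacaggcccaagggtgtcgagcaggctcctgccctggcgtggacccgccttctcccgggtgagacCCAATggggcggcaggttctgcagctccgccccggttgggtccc
Ogdh: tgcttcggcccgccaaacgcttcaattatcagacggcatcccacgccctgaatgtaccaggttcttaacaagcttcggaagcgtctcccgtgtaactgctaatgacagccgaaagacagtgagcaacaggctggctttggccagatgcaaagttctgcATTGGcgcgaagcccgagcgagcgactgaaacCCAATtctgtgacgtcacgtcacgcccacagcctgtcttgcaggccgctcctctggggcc
Pdk4: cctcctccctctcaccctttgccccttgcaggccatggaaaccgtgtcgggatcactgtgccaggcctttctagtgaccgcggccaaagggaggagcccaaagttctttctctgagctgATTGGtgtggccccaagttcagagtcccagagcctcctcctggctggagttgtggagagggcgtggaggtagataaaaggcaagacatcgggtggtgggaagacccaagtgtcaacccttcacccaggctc
Of the 30 genes, 27 had such a window in RefSeq's table, and Idh3a, Sdhc and Dbt are named only. Searched on both strands, CCAAT occurred in 18 of the 35 windows of these genes (15 of the 27 genes) and in 33.8% of the 32851 windows of all genes. The half-site of estrogen-related receptors, AAGGTCA, occurred for Got1 alone (4.08% of all windows), and the core of the NRF1 motif, GCGCATGC, for Ogdh, in a window not shown, and Sdhb (2.26% of all windows). Matches of different motifs shared no bases in the members' windows, and a match of letters is no evidence of binding.

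At day 1 after reperfusion, 12 of the 29 genes tested were lower than in day 1 sham in cardiomyocytes of the 3 plates with at least 5 wells, with isocitrate dehydrogenases, 2-oxoglutarate dehydrogenase and Pdk4 among them. None was higher, while 7.78% of all 4062 genes tested were called lower (edgeR's quasi-likelihood test with Benjamini-Hochberg adjustment, 3 plates against 4). The median log2 fold change was -1.37 over the members and -0.54 over all genes, a difference of -0.82, and 26 members lay below the median of all genes. A single change is to be read against this median of all genes, which depended on the scaling (0.03 under RLE). The count of 12 was 5 with library sizes of all UMIs and 6 with spike-in RNA, with 3.23% and 4.33% of all genes called lower. DESeq2 called 4. The summed level of the 30 genes was 7129 ± 2590 CPM (SD, n = 3) in IR day 1 and 12110 ± 2101 CPM (SD, n = 4) in day 1 sham. The plates overlapped in it (5356 to 10101 CPM against 9650 to 14004 CPM), and the sum itself was not tested.

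Idh2 stood at 163, 166 and 298 CPM in the IR day 1 plates and at 712, 720, 936 and 981 CPM in day 1 sham. The 3 IR plates were all below the 4 sham plates, with a log2 fold change of -2.39 (SE 0.53, edgeR adjusted p = 0.000986). Ogdh stood at 539, 574 and 652 CPM after IR and at 1183, 1243, 1292 and 1329 CPM in sham, again without overlap (log2 -1.63, SE 0.47, adjusted p = 0.0142 in edgeR). Sucla2, the ADP-forming succinyl-CoA ligase subunit, stood at 41.5, 109 and 149 CPM against 331 to 434 CPM (log2 -2.31, SE 0.58, edgeR adjusted p = 0.00395). The subunits of the NAD-dependent isocitrate dehydrogenase moved with them: Idh3a fell by 2.17 on the log2 scale (SE 0.60, edgeR adjusted p = 0.0096), Idh3b by 1.60 and Idh3g by 1.74, the last with plates that overlapped sham.

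The inhibitory kinase Pdk4 had a median of 54.3 CPM (21.3 to 124 CPM, 5 UMIs in all) against 394 CPM (49.8 to 666 CPM), and its low sham value came from replicate 1, so the groups overlapped (log2 -3.16, SE 0.73, edgeR adjusted p = 0.00164). Dlat, the acetyltransferase core of pyruvate dehydrogenase, was seen in 4 UMIs, at 41.5 to 54.3 CPM, and lay below every sham plate at 174 to 252 CPM (log2 -2.63, edgeR adjusted p = 0.00691). Bckdha, the E1 subunit that commits branched-chain amino acids to oxidation, was seen in 2 UMIs against 139, a pooled ratio of sham to IR of 7.23 (95% counting interval 1.96 to 60.3, edgeR adjusted p = 0.00927). Dlst (log2 -1.97), Sdhb (log2 -1.65) and Mdh1 (log2 -1.43) also fell. Dlst was at 0 CPM in 1 IR plate, Sdhb lay below all sham plates at 124 to 255 CPM, and Mdh1 overlapped sham.

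Cs stood at 207, 234 and 1195 CPM after IR against 390 to 929 CPM in sham and did not pass the test (log2 -1.21, SE 0.49, edgeR adjusted p = 0.0855), with 1 IR plate above every sham plate. Pdk1 was the only member with a positive log2 value (0.29). The pyruvate dehydrogenase subunits Pdha1 (log2 -0.54) and Pdhb (log2 -0.93) and both Suclg genes did not pass either. Among other genes of the pathway, Ppm1k, the phosphatase that activates the branched-chain complex, was lower, with 0 UMIs against 65 (at least 2.25-fold lower, by a floor of 3 UMIs over the group). The 3 plates held 5, 6 and 15 wells and 18414 to 47052 UMIs. With all 9 plates, down to 1 well, 6 members were called lower (Idh2 -1.29, Ogdh -1.49, Pdk4 -1.68), and the 6 plates thus added held 1 to 3 wells and 1212 to 12969 UMIs each. Their summed level of the 30 genes was 4287 CPM in 1 plate and 17277 to 23860 CPM in the other 5, above the 9650 to 14004 CPM of day 1 sham. Idh2 had a median of 719 CPM in them (407 to 1928 CPM), Cs 1422 CPM, Sdhb 986 CPM, Ogdh 639 CPM and Pdk4 417 CPM, the last reaching 3665 CPM. With wells of at least 2000 UMIs, 1 member was called (Dlst), and without replicate 1 of day 1 sham or replicate 3 of IR day 1, 7 were.

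**Figure D2:**
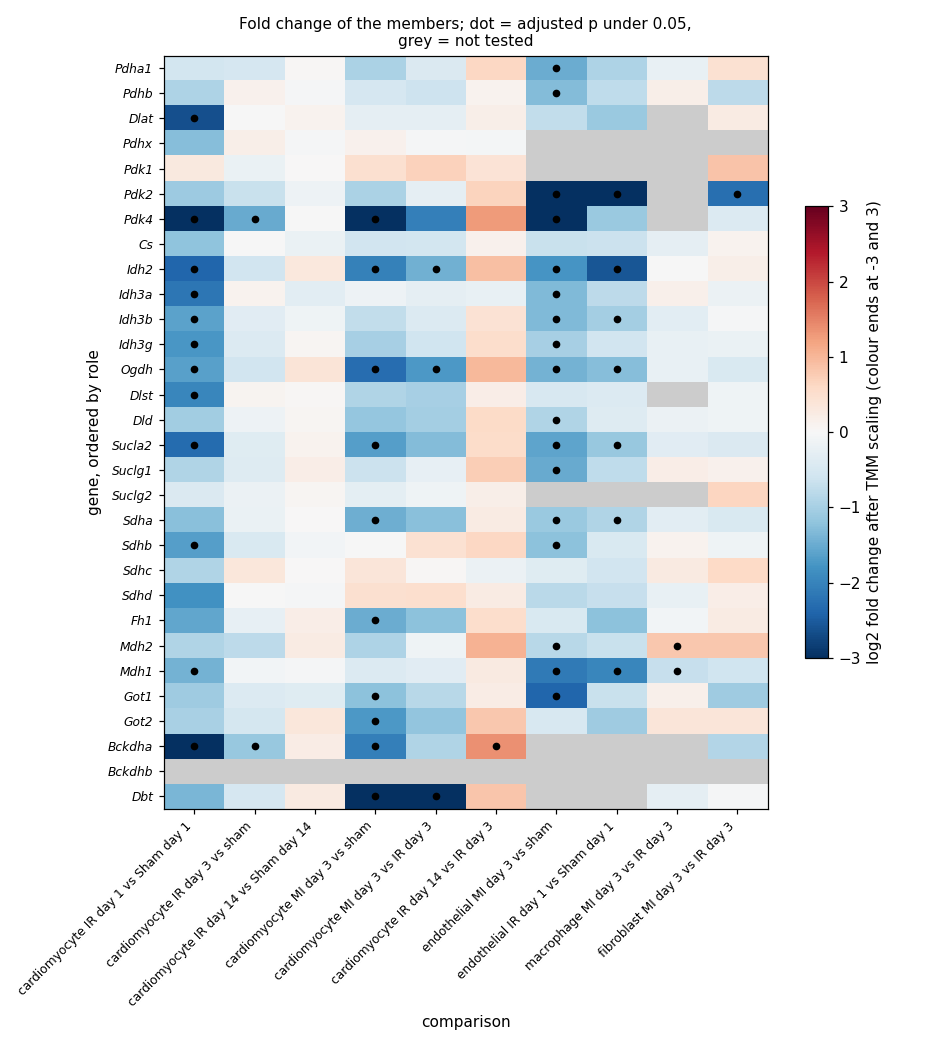
Log2 fold change (colour scale) of each of the 30 genes (rows, by role) in the 10 comparisons (columns); a dot marks an adjusted p under 0.05 and grey a gene not tested. Idh2 and Ogdh carry dots in 5 columns each, and the column of IR day 14 against day 14 sham holds none.

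At day 3 after reperfusion 2 genes, Pdk4 and Bckdha, were lower than in sham. These were 2 of 29 members tested, against 2.02% of all genes called lower, and 0 were higher (5 plates against 9). Pdk4 stood at 55.5, 113, 161, 179 and 181 CPM in IR day 3, and at 49.8 to 666 CPM with a median of 360 CPM in sham (log2 -1.50, SE 0.36, edgeR adjusted p = 0.00261). The 5 IR plates lay in the lower part of the sham range. Bckdha had a median of 111 CPM (0 to 115 CPM) against 115 CPM (0 to 353 CPM), with a log2 fold change of -1.15 (SE 0.35, edgeR adjusted p = 0.0293). Cs stood at 1072 to 1933 CPM against 390 to 1973 CPM (log2 -0.02, edgeR adjusted p = 0.988). Idh2 (log2 -0.58) and Ogdh (log2 -0.57) did not pass the test, and day 3 was not tested against day 1. The median was -0.34 over the members and -0.03 over all genes, and 21 of 29 members lay below the latter. Of 15 other pathway genes, 0 were called by edgeR and 0 by DESeq2, with 2 at an unadjusted p under 0.05 in edgeR. Markers of other cell classes took a median of 0.521% of UMIs per cardiomyocyte well in IR day 3, 0.308% in day 1 sham and 0.226% in day 14 sham. In wells with at most 0.5% of them, which were 134 of the 281 IR day 3 wells, 0 members were called by edgeR and 2 had an unadjusted p under 0.05, both lower. When library sizes came from spike-in RNA, 5 members were called higher (Dlst, Idh3a, Pdhb, Pdhx, Sdhc) and none lower, with 35.7% of all genes called higher. With library sizes of all UMIs, mitochondrial included, the first 3 of those and Sdhc were higher, with 23.9% of all genes called higher. The members' share was thus below that of all genes under both.

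By day 14 after reperfusion no member was called against day 14 sham, with 0 of 29 in either direction and 0.197% of all genes called in either direction (3 plates against 5). At an unadjusted p under 0.05 edgeR gave 0 members, and DESeq2 called 0. The same held for the 15 other pathway genes, with 0 called and 0 at an unadjusted p under 0.05 in edgeR. Idh2 stood at 874, 1180 and 1247 CPM in IR day 14 and at 456, 633, 884, 1045 and 1541 CPM in day 14 sham, so the groups overlapped (log2 0.31, 95% interval -0.44 to 1.07). The log2 fold change of Ogdh was 0.39 (-0.37 to 1.15) and that of Sucla2 0.10 (-0.62 to 0.82). Pdk4 had a median of 224 CPM (186 to 452 CPM) against 262 CPM (162 to 443 CPM), with a log2 fold change of -0.01 (-0.80 to 0.78) whose sign turned under some settings. For Cs it was -0.19 (-0.96 to 0.58), at 818 to 1266 CPM against 931 to 1973 CPM. The day 1 values of Idh2, Ogdh, Sucla2 and Pdk4 lie outside these intervals. The median was 0.03 over the members and 0.08 over all genes.

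The effect of IR differed between day 1 and day 14 for 6 of 29 members when the difference itself was tested (IR against sham at day 14 minus the same at day 1, edgeR, 231 of 4062 genes called). It was 2.70 for Idh2 (edgeR adjusted p = 0.00752), 3.15 for Pdk4, 3.44 for Bckdha, 2.41 for Sucla2, 2.73 for Dlat and 2.02 for Ogdh on the log2 scale. The IR effect at day 14 lay between -0.01 (Pdk4) and 0.39 (Ogdh) for these 6 genes. This contrast was added after the data had been seen.

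Between the reperfused groups, IR day 14 was above IR day 3 for Bckdha, at 171, 172 and 223 CPM against 0, 33.2, 111, 115 and 115 CPM (log2 1.36, SE 0.40, edgeR adjusted p = 0.028). That was 1 of 29 members, with 1.18% of all genes called higher (3 plates against 5), and it was not called without IR day 3 replicate 6 or 7 or without any 1 of the IR day 14 plates. Pdk4 stood at 186 to 452 CPM at day 14, above all 5 plates of day 3, but did not pass the test (log2 1.28, SE 0.42, edgeR adjusted p = 0.0717). Mdh2 (log2 1.04) and Dbt (log2 0.83) also stood above the day 3 plates without passing. Cs had a log2 fold change of 0.12 (edgeR adjusted p = 0.93). The median was 0.52 over the members and 0.11 over all genes, and 25 of 29 members lay above the latter. Of 15 other pathway genes edgeR called 0, with 1 at an unadjusted p under 0.05, and DESeq2 called 0.

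**Figure D3:**
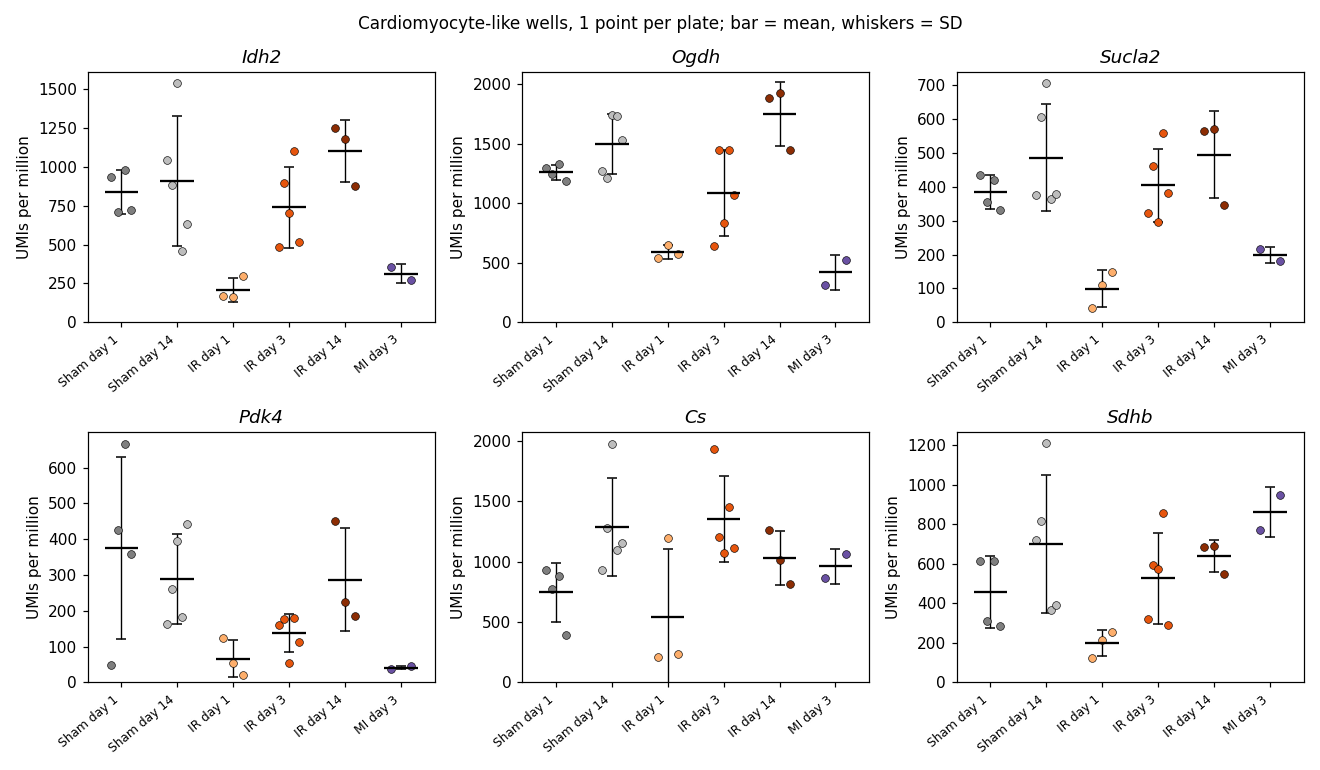
Levels in CPM (vertical axis) of Idh2, Ogdh, Sucla2, Pdk4, Cs and Sdhb in cardiomyocyte wells of each plate, by group; points are plates with at least 5 wells, bars the group means and whiskers the SD. Idh2 and Ogdh lie lowest in IR day 1 and MI, whereas Sdhb in MI (773 and 951 CPM) lies inside the sham range.

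At day 3 after permanent ligation, cardiomyocytes held less RNA of single cycle enzymes than sham, relative to their other nuclear transcripts. Of 29 members tested, 10 were lower and 0 higher under this scaling, with 19.3% of all genes called lower (2 plates of 6 wells each against 9). With library sizes that include mitochondrial RNA 24 were higher, with 64.6% of all genes called higher. CPM values stand before the scaling by TMM (trimmed mean of M values), and the log2 fold changes after it. The 45S precursor Rn45s took 3.59 to 35.9% of nuclear UMIs in sham and 1.57 to 6.94% in MI, so the CPM of other genes is raised in MI. Cardiomyocyte wells of MI held a median of 8298 nuclear UMIs, against 2292 and 1993 in sham of day 1 and day 14.

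Ogdh stood at 317 and 521 CPM in MI and at 1183 to 1742 CPM with a median of 1292 CPM in sham (log2 -2.28, SE 0.52, edgeR adjusted p = 0.000331). Idh2 stood at 272 and 355 CPM against 456 to 1541 CPM with a median of 884 CPM (log2 -2.03, SE 0.52, edgeR adjusted p = 0.00131). Pdk4 stood at 38.0 and 45.3 CPM (5 UMIs) against 49.8 to 666 CPM (log2 -3.56, SE 0.74, edgeR adjusted p = 7.35e-05). Both MI plates were below every sham plate for these 3 genes, and also for Sucla2 (181 and 215 CPM against 331 to 707 CPM, log2 -1.66) and Got1 (407 and 519 CPM against 537 to 1644 CPM, log2 -1.23). Dbt, the E2 core of the branched-chain complex, had 0 UMIs in MI against 66 in sham (at least 1.80-fold lower, edgeR adjusted p = 0.00609). In the 3 MI plates with under 5 wells Idh2 stood at 317, 357 and 373 CPM and Ogdh at 179, 186 and 215 CPM, so that all 5 MI plates were below all sham plates for both. Pdk4 in those 3 plates was 0 CPM, below every sham plate, and 280 and 386 CPM, inside the sham range, and with all 5 plates its log2 fold change was -1.56 (edgeR adjusted p = 0.00748).

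The other genes that fell overlapped sham between plates. They were the flavoprotein subunit Sdha (215 and 521 CPM against 364 to 1113 CPM, log2 -1.45), fumarase Fh1 (log2 -1.48), the mitochondrial aspartate aminotransferase Got2 (log2 -1.71) and Bckdha (log2 -2.06). Sdhb had a log2 fold change of -0.00 (edgeR adjusted p = 0.999) at 773 and 951 CPM against 287 to 1212 CPM. The membrane anchors Sdhc (0.37) and Sdhd (0.49) had positive values that did not pass the test. Cs did not pass either, at 861 and 1064 CPM against 390 to 1973 CPM (log2 -0.58, edgeR adjusted p = 0.315), but did with plates down to 1 well (log2 -0.76, edgeR adjusted p = 0.0431). Without replicate 2 of MI 3 members were called, and without replicate 3, 4.

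The direction in MI depended on what the counts were scaled to, as MI wells held far less mitochondrial RNA. The median was -0.93 over the members and -0.10 over all genes. With library sizes of all UMIs, mitochondrial included, the medians were 1.88 and 2.75, and 8 of the 10 genes above turned positive (all but Pdk4 and Dbt). With spike-in library sizes they were -0.16 and 0.77, and Ogdh, Pdk4 and Dbt were called lower and Sdhc and Sdhd higher, with 9.13% of all genes called lower and 32% higher. The members' median lay below that of all genes by 0.83 under TMM, 0.87 under RLE (relative log expression) scaling, 0.87 with all UMIs and 0.93 with spike-in RNA. A change of library size moves all genes by nearly the same amount, so this gap is close to fixed by construction and is no support for the result.

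**Figure D4:**
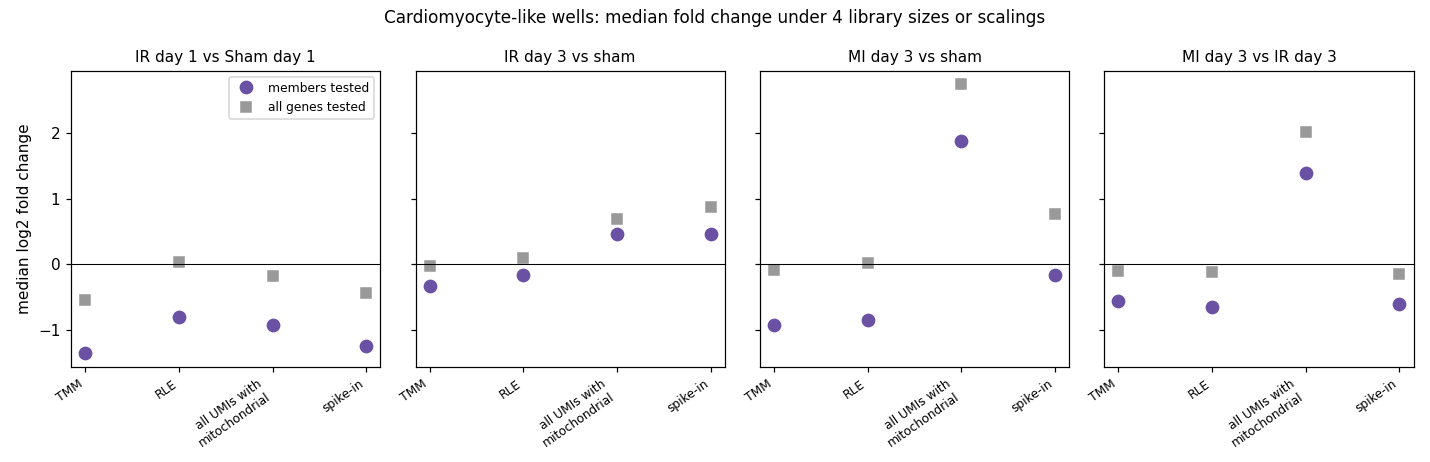
Median log2 fold change in cardiomyocyte wells of the members and of all genes tested (vertical axis) under 4 scalings, for IR day 1, IR day 3 and MI against sham and MI against IR day 3. For MI against sham the members' median moves from -0.93 under TMM to 1.88 with all UMIs, and the gap to all genes changes little, as a change of library size shifts all genes alike.

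Permanent and temporary ligation were compared directly at day 3 (2 plates against 5). Idh2 and Ogdh were lower in MI than in IR day 3 (but higher, at 0.54 and 0.34, with library sizes of all UMIs), and Dbt was the third of 29 members called. That share lay below the 13.4% of all genes called lower. Idh2 stood at 272 and 355 CPM against 483, 514, 702, 893 and 1104 CPM (log2 -1.44, SE 0.53, edgeR adjusted p = 0.0381). Ogdh stood at 317 and 521 CPM against 644, 832, 1068, 1448 and 1450 CPM (log2 -1.71, SE 0.53, edgeR adjusted p = 0.0123). Both groups were apart for both genes. Dbt had 0 UMIs against 54 (at least 1.74-fold lower, edgeR adjusted p = 0.0313), but IR day 3 plates ranged from 0 to 48.2 CPM, so the groups overlapped. Pdk4 (log2 -2.06, edgeR adjusted p = 0.0544) and Cs (log2 -0.56, edgeR adjusted p = 0.404) lay below the IR plates without passing, and Sdhb (0.45) and Sdhd (0.50) had positive log2 values. With plates down to 1 well the log2 fold change of Pdk4 was -0.11 (edgeR adjusted p = 0.888), and 2 of the 3 added MI plates, at 280 and 386 CPM, stood above the 55.5 to 181 CPM of the 5 IR day 3 plates, while the added IR day 3 plate stood at 292 CPM (2 UMIs). The log2 fold change of Cs was then -0.86 and passed (edgeR adjusted p = 0.0462). The median was -0.56 over the members and -0.11 over all genes. No member was called without either MI plate, and 8 were without IR day 3 replicate 3.

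In endothelial-like wells, which line the vessels, MI was below sham for 17 of the 24 members tested, and 0 were higher, with 17.7% of all 3317 genes tested called lower (5 plates against 8). With library sizes of all UMIs 4 were lower (Pdk2, Pdk4, Mdh1 and Got1, with 6.3% of all genes called lower) and with spike-in RNA 2 (Pdk2 and Pdk4, with 4.82%). The endothelial wells of MI held a median of 16645 nuclear UMIs, against 3127 and 2949 in sham of day 1 and day 14, and mitochondrial RNA took a median of 11.2% of their UMIs against 44.3% and 45.9%. The kinases fell most. Pdk4 was at 0 CPM in 3 of the 5 MI plates and at most 16.3 CPM, against 41.6 to 195 CPM in sham (log2 -4.31, SE 0.65, edgeR adjusted p = 2.57e-06). Pdk2 had a median of 8.17 CPM against 105 CPM (log2 -3.27, edgeR adjusted p = 1.06e-05). Mdh1 stood at 69.5 to 175 CPM against 255 to 834 CPM (log2 -2.13, edgeR adjusted p = 1.31e-06) and Idh2 at 0 to 103 CPM against 106 to 424 CPM (log2 -1.78, edgeR adjusted p = 0.000244). In these 4 genes the plates of the groups did not overlap. Got1 (log2 -2.38), Sucla2 (-1.59), Suclg1 (-1.51), Pdha1 (-1.50), Ogdh (-1.42), Idh3a (-1.33), Idh3b (-1.33), Pdhb (-1.30), Sdhb (-1.24), Sdha (-1.12), Idh3g (-0.99), Dld (-0.91) and Mdh2 (-0.84) also fell, Mdh2 and Dld turning positive (0.09 and 0.06) with library sizes of all UMIs and Mdh2 also with spike-in (0.02). Of the other pathway genes, the pyruvate carriers Mpc1 (log2 -1.89) and Mpc2 (-1.89) and the 2-oxoglutarate carrier Slc25a11 (-1.46) were lower. The median was -1.27 over the members and 0.05 over all genes.

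The same class 1 day after reperfusion had 7 of 24 members lower than day 1 sham and 0 higher, with 8.68% of all genes called lower (8 plates against 4). Idh2 had a median of 31.5 CPM (0 to 77.2 CPM) against 256 CPM (155 to 281 CPM), with no overlap (log2 -2.57, edgeR adjusted p = 0.000119). Mdh1 stood at 47.5 to 138 CPM against 255 to 474 CPM (log2 -1.95) and Ogdh at 57.4 to 351 CPM against 474 to 696 CPM (log2 -1.27), both below every sham plate. Pdk2 was seen in 3 UMIs against 48, a pooled ratio of sham to IR of 14.1 (95% counting interval 4.53 to 70.6, edgeR adjusted p = 0.000402). Idh3b (-1.02), Sucla2 (-1.15) and Sdha (-0.91) completed the 7 genes. Of the other pathway genes, Mpc2 (log2 -1.36) was lower.

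Cardiomyocyte markers moved with both of these results. All 10 markers were found in the endothelial wells of sham, where they summed to 1.19 to 1.88% of UMIs on day 1 and 1.21 to 3.66% on day 14. They summed to 0.0333 to 0.709% in IR day 1 and to 0.00477 to 0.0298% in MI, where Myh6 had 1 UMI and Ryr2 none. When only endothelial wells with at most 0.5% cardiomyocyte markers were kept (an alternative chosen after seeing the data, with 29 sham, 62 IR day 1 and 57 MI wells), no member was called in either comparison (edgeR, at an unadjusted p under 0.05 there were 6 for MI, 0 of them lower, and 1 for IR day 1). Plates with under 5 such wells entered these fits, as the day 14 sham plates held 1 to 3 of them. The marker filter and the lower minimum of wells were thus changed together. The summed level of the 30 genes was then 2636 CPM in sham, 2534 CPM in IR day 1 and 2666 CPM in MI, pooled over wells. With all wells it was 4504 ± 477 CPM (SD, n = 4) in day 1 sham, 7135 ± 2331 CPM (SD, n = 4) in day 14 sham, 2540 ± 308 CPM (SD, n = 8) in IR day 1 and 2666 ± 348 CPM (SD, n = 5) in MI. The summed difference seen over all wells was thus not seen in the wells with few cardiomyocyte markers. Idh2 there was 74.7 CPM in sham (10 UMIs) and 88.6 CPM in MI (104 UMIs), the sham UMIs all from day 1 and 0 from the 7 wells of day 14 sham, so that its fitted change (log2 2.58, SE 1.67) rests on a group at 0. Pdk4 was at 44.8 CPM in sham (6 UMIs) against 5.11 CPM in MI (6 UMIs) and Pdk2 at 44.8 CPM (6 UMIs) against 10.2 CPM (12 UMIs), without passing the test (edgeR adjusted p = 0.175 and 0.321). For IR day 1 such wells were 22 of day 1 sham and 62 of IR day 1, and the lower values of single genes did not pass. Pdk2 was at 45.5 CPM in sham (5 UMIs) and 6.62 CPM in IR (3 UMIs), with a log2 fold change of -2.45 (SE 1.06, edgeR adjusted p = 0.295). Idh2 was at 91.0 CPM (10 UMIs) and 46.3 CPM (21 UMIs), with a log2 fold change of -1.44 (SE 0.86, edgeR adjusted p = 0.524). Mdh1 (164 and 94.9 CPM, log2 -0.92) and Ogdh (355 and 234 CPM, log2 -0.55) were also lower in value, at edgeR adjusted p = 0.601 and 0.722. These fits hold few sham UMIs, so a missed threshold does not show equal levels.

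**Figure D5:**
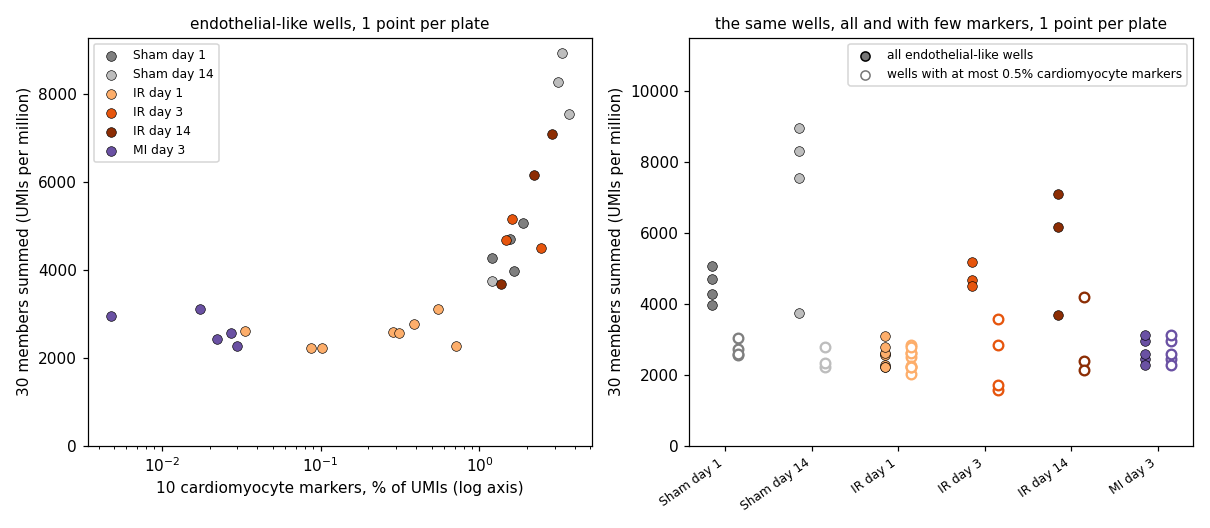
Left, cardiomyocyte markers as percent of UMIs (horizontal, log axis) against the summed level of the 30 genes in CPM (vertical) for each plate's endothelial wells. Right, the summed level by group in all endothelial wells (filled) and in wells with at most 0.5% cardiomyocyte markers (open); the open points of sham (2221 to 3033 CPM) lie within the range of MI or close to it (2276 to 3106 CPM).

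In macrophage-like wells 2 of 21 members passed between MI and IR day 3, Mdh2 higher and Mdh1 lower, a share near or below the 12.8% of all 4362 genes tested that were called in either direction (5 plates against 6). With plates down to 1 well neither was called (edgeR adjusted p = 0.177 for Mdh2 and 0.066 for Mdh1). The mitochondrial Mdh2 stood at 232 to 271 CPM in MI and at 0 to 247 CPM in IR day 3 (log2 0.81, SE 0.22, edgeR adjusted p = 0.0163). The cytosolic Mdh1 stood at 132 to 183 CPM and lay below all IR day 3 plates at 204 to 388 CPM (log2 -0.68, SE 0.18, edgeR adjusted p = 0.0123). Idh1, the cytosolic isocitrate dehydrogenase, was the other pathway gene called (log2 -0.75, edgeR adjusted p = 0.0213). The summed level was 2684 ± 51.1 CPM (SD, n = 5) in MI and 2930 ± 447 CPM (SD, n = 6) in IR day 3, and the median was -0.18 over the members and 0.06 over all genes. Cardiomyocyte markers made up 0.274% of the macrophage UMIs in IR day 3 and 0.0315% in MI. In wells with few of them, neither gene was called (edgeR adjusted p = 0.142 for Mdh2), with 2 members at an unadjusted p under 0.05. Mdh2 was not called in 7 of the 11 fits that left out 1 plate, those without IR day 3 replicate 4 or 7 or any MI plate. Dlat, Pdhx, the 3 kinases, Dlst, Suclg2, Bckdha and Bckdhb did not pass edgeR's filter on low counts, applied over all macrophage plates, and were not tested there. Dlst (medians of 86.5 CPM in MI and 73.6 CPM in IR day 3) and Dlat (45.7 and 47.6 CPM) were among them, although Dbt, at 23.1 and 29.8 CPM, passed the filter.

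In fibroblast-like wells 1 of 28 members was lower after MI than after IR at day 3, the kinase Pdk2, with 5.39% of all 5940 genes tested called lower (5 plates against 4). Pdk2 stood at 2.92 to 9.16 CPM in MI and at 0 to 40.7 CPM with a median of 23.4 CPM in IR day 3 (log2 -2.26, SE 0.72, edgeR adjusted p = 0.0495). It was not called in wells with few cardiomyocyte markers, with plates down to 1 well or with Rn45s left out. Mdh2 (log2 0.82, edgeR adjusted p = 0.0764), Sdhc and Got2 lay above all IR day 3 plates without passing. The median was -0.08 over the members and 0.03 over all genes. Of 16 other pathway genes edgeR called 0, with 2 at an unadjusted p under 0.05, and DESeq2 called 1. Pdhx and Bckdhb were not tested in fibroblasts, Bckdhb also not in cardiomyocytes, and Pdhx, Pdk1, Suclg2 and the 3 branched-chain subunits not in endothelial wells.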

How the data were processed

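SORT-seq UMI counts were measured in 384-well plates of sorted left ventricular cells. The authors mapped reads to GRCm38 (mm10) with BWA, per the labels, and deposited raw UMI counts, 1 table a plate with genes in rows and wells in columns. The BWA version, annotation and UMI correction are not given in the sources used here. The highest deposited value was 4096. The 1 row without a gene name (2.5e-06% of UMIs), mitochondrial genes and spike-in RNA were left out of library sizes.

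Wells of at least 1000 nuclear UMIs were scaled to 10000 and clustered (scanpy 1.11.5, leidenalg 0.10.2, 2000 variable genes, 30 components, 15 neighbours, resolution 1, seed 1). The 62 genes of the member and pathway lists were left out of clustering. A cluster was named "like" a class when at least 3 of that class's markers stood 2-fold or more above the other wells (at a level of at least 0.5 per 10000) and numbered at least 2 times those of any other class. It stayed unnamed when 3 times its median depth was still below that of its own plates, with none of those markers among its 10 leading genes (181 wells with 4 fibroblast markers), and 1 cluster was left unnamed by an exception made with its genes in view (38 wells with 7 fibroblast markers). Doublets were not called. The members and lists were chosen with earlier results of these data known. UMIs were summed per plate and class, with a minimum of 5 wells, and all groups were fitted at once with edgeR 4.0.16 (filterByExpr, TMM, quasi-likelihood F test, two-sided), with Benjamini-Hochberg adjustment over all genes tested and a threshold of 0.05. DESeq2 1.42.0 (R 4.3.3) was an alternative. Values per plate carry the SD over plates, log2 fold changes the SE, and intervals from counts cover counting error only. Summed UMIs of cardiomyocyte wells ranged from 6209 to 850985 per plate, so that 1 UMI is a large share of a rare gene's value in the shallowest plates. Groups came from the sample labels. Every member past the threshold was named, with Pdk4 and Cs in every cardiomyocyte comparison and at most 4 other pathway genes, 1 of which is not reported here.

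Plates of the same replicate number did not deviate together (median correlation of cardiomyocyte deviations -0.0024 over 29 pairs, 2 of them over 0.1), so the numbers were not taken to pair plates. In counts simulated from MI and sham cardiomyocytes (3602 genes, with 76 changed at each size), 47.4% of genes changed by 2 on the log2 scale and 3.95% of those changed by 1 were recovered, and 0.029% of unchanged genes were called. More genes were called in the data (653 higher and 785 lower of 4062), so these rates need not hold there. Wells were also searched for copies. Besides the plate deposited in 2 tables, 16 wells of day 14 sham replicate 2 matched IR day 3 replicate 6, and 6 wells were shared by IR day 1 replicates 5 and 9. Alternatives covered scaling, filters, minimum wells, depth, copies, controls, the replicate block and each plate left out.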

Additional observations from a re-analysis of the deposited data

Results flagged for a closer look

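In 139 groups of 4 to 10 plates, 9 values stood apart from the others of their group, and chance sets apart about 1 in 20. In cardiomyocyte wells, IR day 3 replicate 3, with 5 wells, had the highest Idh3a (1450 CPM, others 313 to 509 CPM), Dlst (1127 CPM, others 269 to 499 CPM) and Got1 (1450 CPM, others 560 to 764 CPM). Dbt was highest in day 14 sham replicate 6, which held 7 wells (273 CPM, others 27.7 to 65.5 CPM). In endothelial wells, the averaged plate 2+7 of day 14 sham had the lowest Ogdh (317 CPM, others 695 to 767 CPM) and the lowest Mdh1 (317 CPM, others 753 to 834 CPM). Sdha was highest in MI replicate 3 (226 CPM, others 138 to 162 CPM) and Got1 in IR day 1 replicate 5 (459 CPM, others 27.0 to 190 CPM). In macrophage wells Mdh2 was highest in MI replicate 5 (271 CPM, others 232 to 237 CPM).

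The effect of IR in cardiomyocytes, tested as day 14 minus day 1 (edgeR, Benjamini-Hochberg adjusted over 4062 genes), differed for 6 members. The difference was 2.70 for Idh2, 3.15 for Pdk4 (adjusted p = 0.0169), 3.44 for Bckdha (adjusted p = 0.0222) and 2.41 for Sucla2 (adjusted p = 0.0222) on the log2 scale. It was 2.73 for Dlat (adjusted p = 0.0254) and 2.02 for Ogdh (adjusted p = 0.0305). Bckdha rests on 2 UMIs and Dlat on 4 UMIs in IR day 1.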

How the results depend on the processing

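The MI cardiomyocytes came from 2 plates of 6 wells. In counts simulated for MI against sham, with 76 genes changed at each size, 3.95% of changes of 1 on the log2 scale were recovered. Several IR day 1 values rest on under 10 UMIs, and the plates left out there for having under 5 wells had higher summed levels in 5 of 6 cases. Named genes gave 619 values on the same side of the threshold and in the same direction, 194 no longer past it, 8 newly past it and 50 of the opposite sign over all alternatives other than leaving out plates. Where a count below differs from that reported, the cause was not tested.

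Counts of members called moved by over 1.5 times as follows, for cardiomyocytes unless stated. Where no share of all genes stands beside a count, it is not to be read as particular to the members. DESeq2 gave 4 for IR day 1 (reported 12), 6 for MI against IR day 3 (3), 0 for IR day 14 against IR day 3 (1) and 3 in fibroblasts (1). RLE scaling gave 7, 6 and 0 for the first 3 of these. Day 1 sham alone gave 1 for IR day 3 (2) and 10 for endothelial MI (17), and day 14 sham alone 0 for IR day 3. Plates down to 1 well gave 6 for IR day 1, 1 for IR day 3, 16 for MI against sham (10), 11 for MI against IR day 3, 0 for IR day 14 against IR day 3, 4 for endothelial IR day 1 (7) and 0 in macrophages (2) and fibroblasts. At least 10 wells gave 4 in macrophages and 2 in fibroblasts, and no MI plate had 10 cardiomyocyte wells. Library sizes of all UMIs gave 5 for IR day 1, 4 (all higher) for IR day 3, 24 (higher) for MI against sham, 17 (higher) for MI against IR day 3, 0 for IR day 14 against IR day 3, 4 for endothelial MI and 3 for endothelial IR day 1. Of all genes, 64.6% were then called higher for MI against sham and 54.4% for MI against IR day 3. Spike-in library sizes gave 6 for IR day 1, 5 (higher) for IR day 3, 5 for MI against sham, 0 for IR day 14 against IR day 3, 2 for each endothelial comparison and 0 in macrophages and fibroblasts. Without the filter on low counts IR day 3 gave 1 and IR day 14 against IR day 3 gave 0. Wells of at least 2000 UMIs gave 1 for IR day 1, 0 for IR day 3, 16 for MI against sham, 8 for MI against IR day 3 and 0 for IR day 14 against IR day 3. Without Rn45s, MI against IR day 3 gave 7 and fibroblasts 0. Wells with few cardiomyocyte markers gave 0 in all 4 comparisons of other classes, with plates of under 5 such wells in the endothelial fits. Cardiomyocyte wells with at most 0.5% markers of other classes, an alternative added after seeing the data, gave 21 for IR day 1, 0 for IR day 3, 16 for MI against sham, 10 for MI against IR day 3 and 0 for IR day 14 against IR day 3. Among MI plates only replicate 2, with 6 such wells, held at least 5, and IR day 1 plates held 1 to 11. The part of the filter and that of plates with few such wells were not separated.

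With the replicate block, 7 were called for IR day 1, 6 for MI against sham and 0 for IR day 3, MI against IR day 3, IR day 14 against IR day 3, macrophages and fibroblasts, while endothelial MI gave 16 and endothelial IR day 1 gave 5. The shared numbers did not pair the plates.

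Leaving out 1 plate at a time gave 7 to 15 for IR day 1, 1 to 2 for IR day 3, 0 for IR day 14 in every such fit, 3 to 13 for MI against sham, 0 to 8 for MI against IR day 3 and 0 to 1 for IR day 14 against IR day 3. It gave 14 to 18 for endothelial MI, 5 to 8 for endothelial IR day 1, 1 to 2 in macrophages and 0 to 1 in fibroblasts.

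Signs turned for values near 0 and under a change of library size. Cs in IR day 3, -0.02 as reported, was 0.16 with DESeq2, 0.16 with RLE, 0.27 with day 1 sham alone, 0.10 with plates down to 1 well, 0.016 with at least 10 wells, 0.88 with all UMIs, 0.72 with spike-in, 0.029 without a filter, 0.12 with the block, 0.012 with wells of 2000 UMIs, 0.041 without Rn45s and -0.13 to 0.094 leaving out plates. Cs in IR day 14 against IR day 3 was -0.18 with DESeq2, -0.18 with RLE, -0.10 with plates down to 1 well, -0.0037 with at least 10 wells, -0.53 with all UMIs, -0.64 with spike-in and -0.051 to 0.20 leaving out plates. Pdk4 in IR day 14 was 0.25 with all UMIs, 0.14 without a filter, 0.32 with the block, 0.040 with wells of 2000 UMIs, 0.087 with few markers of other classes, 0.013 without the second table of 1 plate and -0.46 to 0.28 leaving out plates. With all UMIs, MI against sham gave Bckdha 0.76, Fh1 1.37, Got1 1.55, Got2 1.16, Idh2 0.80, Ogdh 0.54, Sdha 1.40, Sucla2 1.16 and Cs 2.24. MI against IR day 3 gave Idh2 0.54, Ogdh 0.34, Pdk4 0.066 and Cs 1.36, and endothelial MI Dld 0.064 and Mdh2 0.093. With spike-in, Cs in MI against sham was 0.10 and Mdh2 in endothelial MI 0.021. Endothelial wells with few cardiomyocyte markers, of which day 14 sham held 7 (with 0 UMIs of Idh2), gave, for MI, Dld 2.81, Got1 2.21, Idh2 2.58, Idh3b 1.32, Idh3g 2.95, Mdh2 0.78, Sdha 0.11, Sdhb 1.64 and Sucla2 3.07, and, for IR day 1, Sucla2 0.99.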

Other observations

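In neutrophil-like wells the summed level of the 30 genes was 1562 ± 728 CPM (SD, n = 9) in IR day 1 and 1816 ± 339 CPM (SD, n = 5) in MI. In mural-like wells, of which 21 were found, it was 3526 CPM in MI and 4848 CPM in both sham groups, pooled over wells.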
